A study of Mus musculus with 4 samples.

Results

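Bc1, brain cytoplasmic RNA 1, is a small noncoding RNA of rodent neurons. It was followed here as 1 of the 31053 genes of the count matrices. The gene was chosen by values of these data, namely its levels across cell groups and its distance between the FAC-sorted and the unsorted libraries, so those levels are given as a description, without a test. Single-cell RNA-seq was performed on ventromedial prefrontal cortex (vmPFC, prelimbic and infralimbic areas) of male C57BL/6 mice, whose labelled age of 8 weeks is, by the study's methods, that at virus injection, some weeks before the tissue was taken. All animals carried 5 retrograde rAAV2-retro viruses, each encoding EGFP with its own barcode and driven by a short CAG promoter, injected into LH (lateral hypothalamus), BLA (basolateral amygdala), AI (agranular insular cortex), MD (mediodorsal nucleus of the thalamus) and DMS (dorsomedial part of the striatum). There were 3 unsorted libraries, labelled mouse 1 to 3, and 1 library of FAC-sorted EGFP-positive cells pooled from 3 further mice. No library of uninjected animals entered these comparisons. The methods give each unsorted mouse its own well of 1 chip, so animal and well cannot be told apart in the spread over unsorted libraries.

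Bc1 is transcribed by RNA polymerase III and not by polymerase II, which makes the mRNAs. The RNA is carried into dendrites, where it is known as a repressor of translation initiation that acts through the helicase eIF4A and the poly(A)-binding protein. Its 5′ part descends from an alanine tRNA, and an internal stretch is rich in A. The library chemistry primes on oligo(dT) at the 3′ end of transcripts, so the A runs are the part of the sequence where this chemistry could anneal.

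In the GENCODE annotation Bc1 is a noncoding gene of 1 exon (ENSMUSG00000115783) on the plus strand at chr7:144914470-144914637 of GRCm38, 168 bases long. Its sequence is shown 5′ to 3′ because the runs of A, in capitals where they reach 6 bases or more, are where oligo(dT) could prime.
Bc1: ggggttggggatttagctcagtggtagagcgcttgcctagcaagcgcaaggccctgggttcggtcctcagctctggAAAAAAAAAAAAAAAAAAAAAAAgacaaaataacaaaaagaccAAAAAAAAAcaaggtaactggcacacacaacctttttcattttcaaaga
Of the 168 bases, 70 are A (41.7%). The longer run covers bases 77 to 99 and is 23 A long, with 69 bases of transcript after it. The shorter one covers bases 120 to 128. A run of 23 A is uncommon: 498 of 55450 annotated genes (0.898%) have a transcript that holds one. The 5′ part is not unique to Bc1. Of its 138 windows of 31 bases, 56 also occur in a transcript of another gene, 52 of them in Lrrc17, and all of the shared windows lie within bases 1 to 86. Reads from that part could be assigned elsewhere or dropped, so the counts below may understate Bc1, to a degree that was not measured. The RefSeq model starts at the same base, ends earlier and is 154 bases long.

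The unsorted libraries held 8040, 7443 and 7243 cell barcodes with 87809114, 83039497 and 83851094 UMIs in all, and the sorted library held 2075 barcodes with 54728191 UMIs. Bc1 was counted 16785, 17309 and 20345 times in the unsorted libraries, against 57882 times in the sorted one. The authors' annotation lists 2816, 2486 and 2463 excitatory neurons of the unsorted libraries and 1603 of the sorted library, in 7 subtypes named by layer and marker. Each of the 7 name genes was highest in the subtype that bears its name. In total, 82 barcode sequences occurred in more than 1 library, and for 52 of them at least 1 was a listed neuron. Levels are given as Bc1 UMIs per 10000 UMIs, summed over the cells of a group in a library, with the mean ± SD over the 3 unsorted libraries.

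In listed excitatory neurons, the Bc1 level was 2.29, 2.48 and 2.88 per 10000 UMIs in unsorted replicates 1, 2 and 3 (2.55 ± 0.30, SD, n = 3). It was 10.8 per 10000 in the sorted library, with a 95% Poisson interval of 10.7 to 10.9 that covers counting error only. The median neuron of the unsorted libraries carried 4, 5 and 6 Bc1 UMIs, while that of the sorted library carried 33, and the highest neurons carried 21, 26, 28 and 112. At least 1 Bc1 UMI was found in 96.7%, 98.0% and 98.5% of unsorted neurons and in 99.5% of sorted neurons. Ranked by level among the genes detected in these neurons, Bc1 stood at place 846, 767 and 636 in the unsorted libraries, of 20357, 20168 and 20232 genes, and at place 77 of 20018 in the sorted library. It was thus a moderately abundant gene in the unsorted neurons and 1 of the most abundant in the sorted ones. Listed neurons held 83.1%, 80.7% and 82.2% of all Bc1 UMIs of the unsorted libraries, against 69.3%, 67.9% and 69.3% of all UMIs.

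All 7 subtypes contained Bc1, and their levels lay within a 1.66-fold range. L2/3-Rorb neurons, superficial intratelencephalic cells, had the highest level, at 3.27, 3.44 and 4.04 per 10000 UMIs in the 3 unsorted libraries (3.58 ± 0.40). The lowest level was in L6-Syt6 neurons, the corticothalamic type and the largest subtype, at 1.92, 2.12 and 2.45 per 10000 (2.16 ± 0.27). The groups did not overlap, and the ratio of the former to the latter was 1.71, 1.62 and 1.65 in the unsorted libraries, against 1.95 in the sorted one.

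Between these ends stood L5-S100b (2.91, 3.18 and 3.47 per 10000 UMIs), L2/3-Calb1 (2.88, 2.80 and 3.21), L6-Npy (2.59, 2.79 and 3.37), L5-Htr2c (2.34, 2.78 and 3.23) and L5-Bcl6 (2.07, 2.15 and 2.66). Every pair of neighbours in this order had overlapping ranges, so no neighbours differed beyond the spread over libraries. Within a library the order was steadier than the ranges show. Of the 6 pairs of neighbours, 5 kept their order in 3 of 3 unsorted libraries, and L2/3-Calb1 lay above L6-Npy in 2 of 3. Unsorted replicate 3 had the highest level in each of the 7 subtypes. The L2/3-Rorb range overlapped those of L5-S100b and L6-Npy and no other, and the L6-Syt6 range overlapped those of L5-Htr2c and L5-Bcl6 and no other. Subtypes of layers 2/3, 5 and 6 were interleaved in this order.

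**Figure D1:**
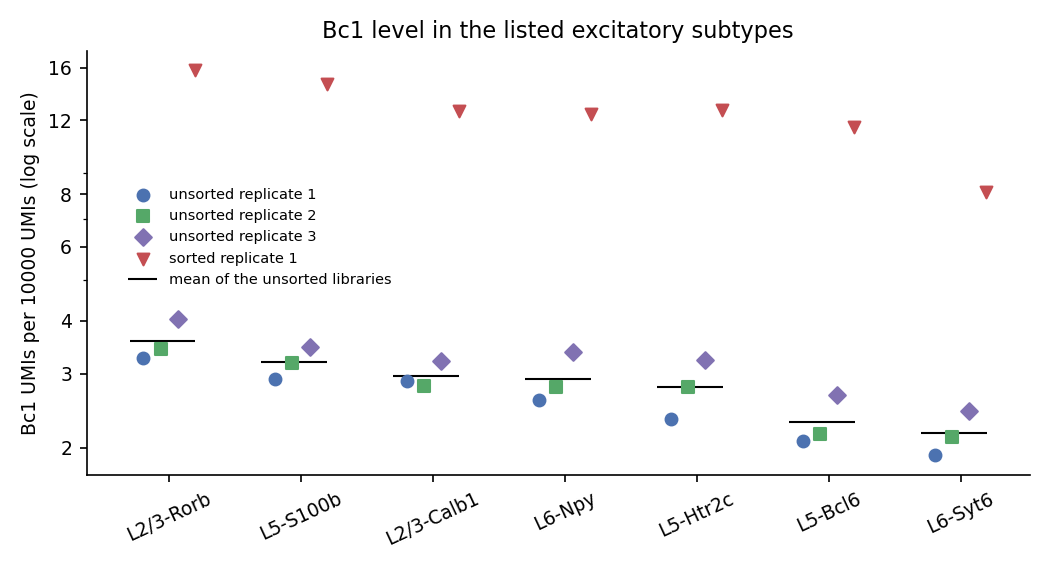
Bc1 UMIs per 10000 UMIs (vertical axis, log scale) in the 7 excitatory subtypes (horizontal axis), with 1 point per library and a black line at the mean of the 3 unsorted libraries. Unsorted levels run from 1.92 to 4.04, and the sorted library sits between 8.09 and 15.8 in every subtype.

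The sorted library kept nearly the same order at a higher level. Sorted L2/3-Rorb neurons had 15.8 Bc1 UMIs per 10000 (15.4 to 16.2), L5-S100b neurons 14.6, L5-Htr2c neurons 12.7 from only 4 cells, L2/3-Calb1 neurons 12.6, L6-Npy neurons 12.4, L5-Bcl6 neurons 11.5 and L6-Syt6 neurons 8.09 (7.99 to 8.20). Each lay above all 3 unsorted libraries of its subtype.

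Over all listed neurons the sorted level was 4.25 times the unsorted mean, and 4.72, 4.37 and 3.76 times the single unsorted libraries. By subtype the ratio ran from 3.75 in L6-Syt6 to 5.03 in L5-Bcl6. Of the 3911 genes with at least 0.5 counts per 10000 in unsorted listed neurons, Bc1 had the highest ratio. The next were mt-Atp8, a mitochondrial gene of ATP synthase, at 2.25, the guidance receptor Plxna4 at 2.13, and Camk2a, the dendritically localized kinase subunit, at 2.09. The median gene had a ratio of 1.05. Bc1 also came first in 6 of the 7 subtypes, and at place 3 in L5-Htr2c with its 4 sorted cells. The sort, the animals, the library, the lane and the sequencing run cannot be told apart here, and the sorted side is a single library.

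Several other properties moved with the sort. The median share of mitochondrial UMIs in listed neurons was 6.54%, 6.54% and 6.52% in the unsorted libraries, against 3.47% in the sorted one, and the 12 mitochondrial genes among the 3911 had a median ratio of 0.678, with mt-Co3, a cytochrome oxidase subunit, lowest of all genes at 0.31. Short transcripts were not generally higher after sorting: the 1608 genes with a median transcript under 1000 bases had a median ratio of 0.922, and the 156 genes over 5000 bases had 1.29. Bc1, at 168 bases, went against that direction. Sorted neurons had more UMIs, with a median of 31669 against 21343.5, 22239 and 23213. Restricting every library to neurons of 15000 to 30000 UMIs gave levels of 2.30, 2.47 and 2.92 in the unsorted libraries, against 12.5 in the sorted one, a ratio of 4.87. With mitochondrial UMIs taken out of the total, the ratio was 4.11.

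Bc1 also varied more than most genes among the unsorted libraries themselves. Its highest library was 1.26 times its lowest in listed neurons, against 1.04 times for the median gene, which placed it 58th of 3911.

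**Figure D2:**
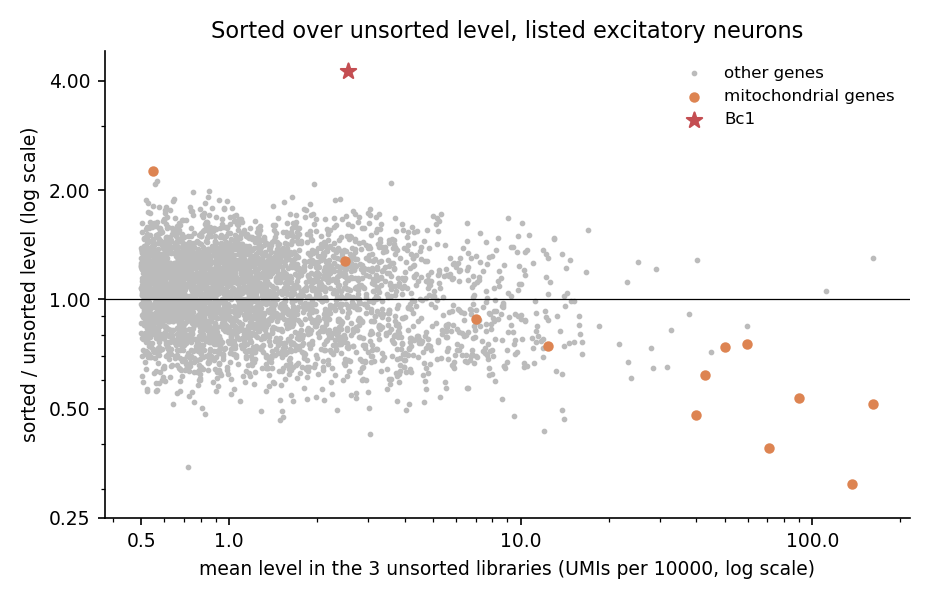
Ratio of the sorted to the mean unsorted level (vertical axis, log scale) against the mean unsorted level per 10000 UMIs (horizontal axis, log scale) in listed excitatory neurons, 1 point per gene, with mitochondrial genes in orange and Bc1 as a star. Bc1 lies at 4.25, above mt-Atp8 at 2.25, and most mitochondrial genes lie below the line at 1.

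Genes around Bc1 were followed in lists, grouped by role. No measured member of the dendritic, partner, nuclear noncoding or neuronal lists was highest in L2/3-Rorb. The share of all genes highest in each subtype was not computed. Counts of this kind, here and below, therefore describe single members and not the lists. Of the 7 mRNAs known to be localized to dendrites (Camk2a, Map2, Ddn, Shank1, Dlg4, Arc and Nrgn), 4 were highest in L5-Bcl6, among them Nrgn, the calmodulin-binding neurogranin, at 50.9 per 10000 UMIs. Their median ratio of the highest to the lowest subtype was 4.10, against 1.66 for Bc1. After sorting, the 7 ranged from 0.648 times (Nrgn) to 2.09 times (Camk2a) the unsorted level, with a median of 1.26.

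Of the 14 genes listed as partners of Bc1 or as parts of translation initiation, all were in the matrices and 13 reached the level of 0.05 per 10000 UMIs set for description, Igf2bp1 being the one below it. Eif4a2, which encodes a form of the eIF4A helicase, was at 9.71 ± 0.26 per 10000 in unsorted listed neurons, and Pabpc1, the poly(A)-binding protein, at 0.960 ± 0.016. Fmr1, which encodes the fragile X protein, was at 0.787 ± 0.019, Stau2, a dendritic transport protein, at 1.35 ± 0.03, and Pura and Purb, which bind Bc1 RNA, at 4.54 ± 0.16 and 5.90 ± 0.20. Sorted over unsorted ratios of the 13 ran from 0.715 (Eif4a2) to 1.37, with a median of 1.11.

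The polymerase III machinery, 24 genes of which 22 reached the same level, was sparse. The highest was Polr1d, a subunit shared with polymerase I, at 2.34 ± 0.05 per 10000 UMIs. The catalytic subunit gene Polr3a was at 0.153 ± 0.003, and Maf1, the repressor of polymerase III, at 0.618 ± 0.010. Of the 22, 4 were highest in L2/3-Rorb (Polr3c, Polr3d, Polr3k and Gtf3c4), 6 were lowest in L6-Syt6, and none did both. Their median sorted over unsorted ratio was 0.988. None of 7 other polymerase III transcripts (such as the 7SK RNA Rn7sk and the RNase MRP RNA Rmrp) had a row in the count matrices used here, so Bc1 could not be set beside another RNA of its kind.

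Of the 7 nuclear noncoding RNAs listed, 6 had a row. Malat1, a nuclear speckle RNA, was at 161 ± 9 per 10000 UMIs in unsorted listed neurons and 210 in the sorted library, and Meg3 at 111 ± 1 and 117. The median ratio of the 6 was 1.13, and that of 8 neuronal mRNAs (Snap25, Syt1, Rtn1, Uchl1, Thy1, Nsg2, Stmn2 and Slc17a7) was 1.22.

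The genes with the pattern most like Bc1 over subtypes were found by Pearson's r of log2(level + 0.1) over 7 subtypes in 3 unsorted libraries (21 points, 2839 genes). They were Smarcd1, a subunit of the BAF chromatin complex (r = 0.93), Zc3h15 (0.91), Atp9a (0.87), Ost4 (0.84) and Tmem256 (0.82). Smarcd1 was at 1.59 per 10000 UMIs in L2/3-Rorb and 1.10 in L6-Syt6. The most opposite were Fam234b (-0.86), Usp22 (-0.85) and Nos1ap (-0.85). Of the listed genes that could be ranked, Fmr1 came nearest (0.58) and Polr1d lay farthest (-0.77). The points share libraries and their depth, and r is given without a test.

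With the cell classes outside the list added (48 points, 5390 genes), the order was set by neurons against other cells. Ywhag, a 14-3-3 protein (0.96), Slc12a5, the neuronal chloride exporter KCC2 (0.96), Sncb, beta-synuclein (0.96), Chchd4 (0.96) and Atp6v1c1 (0.96) came first, and Magt1 (-0.94), Aph1a (-0.93) and Hnrnpf (-0.92) last. In this wider comparison the partner genes ran from 0.94 (Stau2) to -0.73 (Eif4a1 and Cyfip1), with Hnrnpa2b1 at -0.70, and the dendritic mRNAs from 0.92 (Camk2a) to 0.72 (Arc).

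Cell barcodes outside the authors' list numbered 5224, 4957 and 4780 in the unsorted libraries, against 472 in the sorted one. Their Bc1 level was 1.05, 1.25 and 1.41 per 10000 UMIs (1.24 ± 0.18) and 6.75 in the sorted library. At 500 or more genes the level was 1.04, 1.25 and 1.39, and 6.79 after sorting. Only part of the barcodes outside the list passed the filter for clustering, which is given with the processing: 4196, 3845 and 3666 unsorted and 188 sorted ones. They were clustered together with listed neurons, with Bc1 left out, and the clusters were named from cell type markers. A name below means that the cluster's leading genes are markers of that type.

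The inhibitory neuron-like clusters had 2.04, 2.50 and 2.83 Bc1 UMIs per 10000 in the unsorted libraries (2.46 ± 0.40, 1406 cells), a range that overlapped that of the listed excitatory neurons. In the sorted library only 8 such cells were found, at 8.36 (7.02 to 9.88). Clusters led by Vip and Cnr1 (2.95 ± 0.67), by Npy, Reln and Ndnf (2.88 ± 0.67) and by Vip and Calb2 (2.59 ± 0.45) had higher means than the clusters led by Sst and Npy (2.07 ± 0.21) and by Sst, Nos1 and Tac1 (1.97 ± 0.23). The ranges of the first 3 overlapped that of the Sst and Npy cluster (1.95 to 2.31) and lay above that of the Sst, Nos1 and Tac1 cluster (1.71 to 2.12). A cluster of 46 cells led by Calb2, Zic1, Igfbpl1 and Sox2 had the lowest level, at 0.72 ± 0.29, with a median of 1755.5 UMIs per cell.

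Excitatory neuron-like barcodes left out of the authors' list, 279 in the unsorted libraries, had 2.26, 2.43 and 3.79 per 10000 UMIs (2.83 ± 0.84). In the sorted library 107 such barcodes had 4.70 (4.13 to 5.32), 1.66 times the unsorted mean and less than the 10.8 of listed sorted neurons. Their median depth was 1778, 2072.5 and 1590 UMIs without sorting, against 4855 with it, and their median mitochondrial share in the sorted library was 13.4%, against 3.47% in listed neurons.

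Non-neuronal classes were lower by a wide margin. Microglia-like cells had 0.395, 0.439 and 0.378 per 10000 UMIs (0.404 ± 0.031), mature oligodendrocyte-like cells 0.366 ± 0.012, endothelial-like cells 0.366 ± 0.022, oligodendrocyte precursor-like cells 0.325 ± 0.053, border macrophage-like cells 0.354 ± 0.092, mural-like cells 0.473 ± 0.092 and astrocyte-like cells 0.674 ± 0.104. All unsorted values of these classes lay below those of each of the 7 listed excitatory subtypes. The inhibitory neuron-like cluster of 46 cells, at 0.467, 1.04 and 0.662, overlapped the astrocyte-like range. Fibroblast-like cells were too few to place: 14 of their 15 Bc1 UMIs came from 1 library and 1 cell.

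Pooled, the non-neuronal classes had 0.377, 0.399 and 0.409 per 10000 UMIs (0.395 ± 0.017) in the unsorted libraries. A Bc1 UMI was found in 12.9%, 13.6% and 14.5% of these cells, at median depths of 3881.5, 3962 and 4146 UMIs. In droplet data free RNA reaches every droplet, so the level was set beside that of 8 mRNAs of neurons in the same cells. Bc1 stood at 15.6 ± 1.2% of its level in listed excitatory neurons, while the 8 mRNAs stood at a median of 4.42%, from 3.48% to 14.2%. In microglia-like cells the values were 16.03% for Bc1 and 2.22% for the median of the mRNAs, with the 8 mRNAs between 1.78% and 7.62%. In endothelial-like cells they were 14.5% and 2.72%, and in mature oligodendrocyte-like cells 14.5% and 2.92%. The 7 dendritic mRNAs were at a median of 9.40% in microglia-like cells, with 11.7% the highest of them, and 10.1% over the pooled classes. Single mRNAs reached further than Bc1 in some classes: the highest of the 8 neuronal mRNAs was at 46.7% in oligodendrocyte precursor-like cells, where Bc1 was at 12.7%, and at 38.1% in mural-like cells, where Bc1 was at 18.7%, and the highest dendritic mRNA was at 36.4% over the pooled classes. The source of the Bc1 UMIs in these cells was not tested.

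In inhibitory neuron-like cells Bc1 was at 96.1 ± 6.2% of its excitatory level and the 8 mRNAs at a median of 78.4%. In astrocyte-like cells Bc1 was at 26.7 ± 4.9% and the mRNAs at 21.1%. The sorted library held only 69 non-neuronal cells, mostly of 2 classes. Its 57 microglia-like cells had 1.28 per 10000 (0.959 to 1.68), above all unsorted libraries, and its 11 mature oligodendrocyte-like cells 0.726 (0.406 to 1.20).

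Because a share of cells with a UMI grows with depth, every cell was also thinned to 2000 UMIs, and shallower cells were left out. At that depth 37.7%, 38.5% and 42.9% of unsorted listed neurons held a Bc1 UMI, against 84.1% in the sorted library. Among non-neuronal cells the thinned share was 6.80%, 7.36% and 7.34%, and 20.3% after sorting. For all barcodes outside the list it was 12.1%, 13.9% and 14.2%, and 52.1% after sorting.

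**Figure D3:**
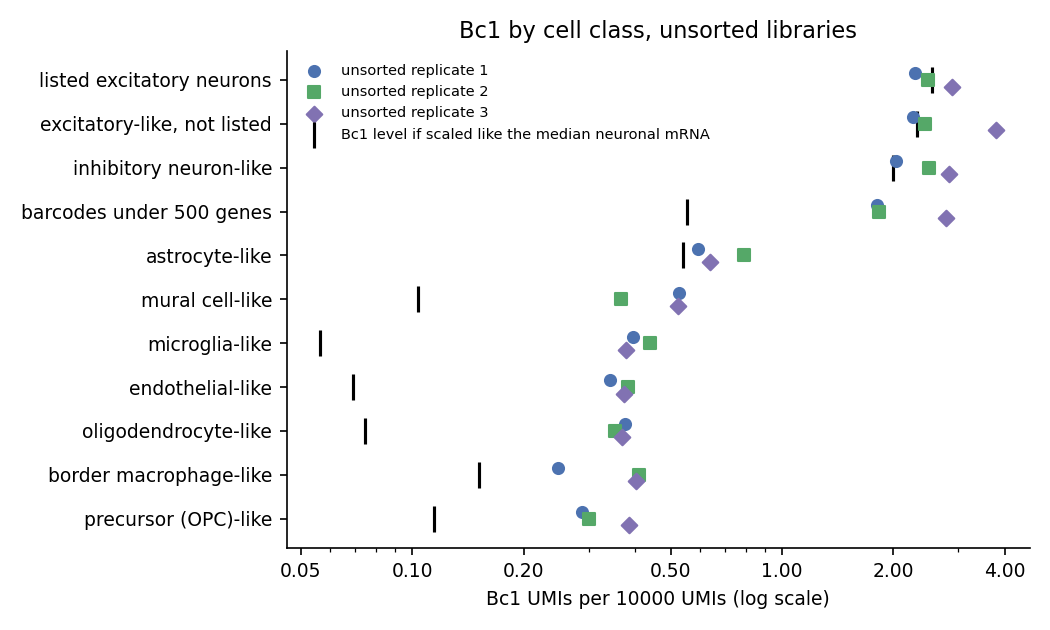
Bc1 UMIs per 10000 UMIs (horizontal axis, log scale) by cell class (vertical axis), 1 point for each of the 3 unsorted libraries. The black tick of each class is the excitatory Bc1 level scaled by the median share that 8 neuronal mRNAs reach in that class, for example 2.22% in microglia-like cells. The points of the non-neuronal classes shown lie to the right of their ticks, least so in astrocyte-like cells. Fibroblast-like cells are not shown.

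The 3 unnamed clusters of highest depth were led by endothelial, microglial or oligodendrocyte genes and yet had Bc1 levels of 2.24 ± 0.45, 2.33 ± 0.38 and 1.70 ± 0.14 per 10000 UMIs. Their cells had median depths of 26352, 27629 and 28814 UMIs, above the median of listed neurons, and the 8 neuronal mRNAs summed to 105, 107 and 105 per 10000 in them, against 122 in listed excitatory neurons. No doublet caller was run on these barcodes. Over all barcodes outside the list, the level of Bc1 fell and rose again with depth. In unsorted replicate 1 it was 2.19 per 10000 in barcodes under 1000 UMIs, 1.12 from 1000 to 2000, 0.485 from 2000 to 5000, 0.632 from 5000 to 10000, 1.64 from 10000 to 20000 and 1.82 at 20000 or more. Replicates 2 and 3 had the same shape, with 2.27 and 3.08 at the shallow end, 0.545 and 0.598 from 2000 to 5000 and 2.16 and 2.38 at the deep end.

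Barcodes under 500 genes, 516, 556 and 562 in the unsorted libraries, against 65 in the sorted one, are mostly droplets with little RNA. Their Bc1 level was 1.81, 1.83 and 2.77 per 10000 UMIs (2.14 ± 0.55), and 4.68 in the sorted library (3.16 to 6.68). These levels rest on 65, 69, 101 and 30 Bc1 UMIs. A Bc1 UMI was found in 11.2%, 11.9% and 15.3% of the unsorted barcodes and in 35.4% of the sorted ones, at median depths of 633, 622, 608.5 and 1031 UMIs. Ranked by level among the genes detected there, Bc1 stood at place 620, 620 and 414 of 12864, 12901 and 12859 in the unsorted libraries and at place 70 of 7032 in the sorted one.

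Relative to listed excitatory neurons of the same library, Bc1 in these shallow barcodes was at 78.9%, 73.8% and 96.4% (83.1 ± 11.8%). The 8 neuronal mRNAs were at a median of 21.7%, from 17.3% to 24.7%. The dendritic mRNAs fell in 2 groups. Map2, the dendritic microtubule protein, was at 78.4 ± 14.5%, Shank1, a scaffold of the postsynaptic density, at 70.0 ± 16.6%, Camk2a at 61.6 ± 8.7%, Ddn, dendrin, at 56.7 ± 5.2% and Dlg4, PSD-95, at 47.3 ± 5.2%. Arc, at 22.9 ± 4.0%, and Nrgn, at 17.3 ± 3.9%, were near the neuronal mRNAs. Malat1 was at 48.8 ± 4.8% and Meg3 at 8.30 ± 1.63%.

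Among 565 genes at 1 or more per 10000 in listed neurons and at no more than 25% of that level in the non-neuronal classes, the median gene kept 26.5% of its excitatory level in barcodes under 500 genes. Bc1 came 3rd, after Baalc (101%) and C230004F18Rik (90.3%) and before Shank1, Camk2n1 (66.4%), Ncs1 (63.1%), Camk2a and Ddn. In the sorted library it stood at 43.2% of its excitatory level and ranked 154th of the 565, beside a median gene at 25.0%. The share depends on the total used. With mitochondrial UMIs taken out of it, Bc1 was at 10.8 per 10000 in the shallow sorted barcodes and 11.2 in listed sorted neurons. The unsorted means were then 2.66 and 2.73. The shallow barcodes differed between the libraries in other ways: their median mitochondrial share was 17.8%, 18.1% and 16.9% in the unsorted libraries, against 58.0% in the sorted one. Splitting them at 20% mitochondrial UMIs gave 1.43, 1.58 and 2.39 Bc1 UMIs per 10000 below it and 2.34, 2.16 and 3.54 at or above it in the unsorted libraries. In the sorted library the order was the opposite, with 8.81 per 10000 in the 10 barcodes below 20%, from 5 Bc1 UMIs, and 4.28 in the 55 at or above it. This reversal was absent with mitochondrial UMIs taken out of the total. The sorted library then had 9.69 below 20% and 11.04 at or above it. The unsorted libraries had 1.63, 1.82 and 2.75 below it and 3.42, 3.20 and 4.85 at or above it. Among unlisted barcodes of 500 or more genes, Bc1 was 4th of 4160 genes by sorted over unsorted ratio (5.53), and under 500 genes it was 208th of 2732 (2.19). With mitochondrial UMIs taken out of the total, these 2 ratios were 5.55 and 4.07.

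In L6-Syt6, Bc1 was higher where the mitochondrial share was higher and the UMI total lower, in 1511, 1426 and 1382 unsorted and 773 sorted neurons. In unsorted replicate 1 the level was 1.68, 1.82, 1.81, 2.02 and 2.30 per 10000 UMIs over 5 equal bins of rising mitochondrial share. The top bin was 1.36, 1.40 and 1.51 times the bottom one in the unsorted libraries (1.43 ± 0.08) and 1.64 times in the sorted library. With mitochondrial UMIs taken out of the total, the ratios were 1.42, 1.46 and 1.58, and 1.69 after sorting, while the median gene was at 1.03, 1.04 and 1.04, and 1.06. Bc1 stood at the 97.3, 97.5 and 98.5 percentile of 4036, 4019 and 4026 genes, and at 97.5 in the sorted library. Some genes moved much further over the same bins, such as Rcan2, at 4.14, 4.56 and 4.77 times, and 5.52 after sorting. Whether the bins differ in their mix of cells was not tested.

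Over bins of rising UMI total the level fell in L6-Syt6, from 2.22 to 1.70 per 10000 in replicate 1, from 2.56 to 1.89 in replicate 2, from 2.61 to 2.22 in replicate 3 and from 9.37 to 7.35 in the sorted library. Across cells Spearman's rho of the Bc1 level with the mitochondrial share was 0.14, 0.20 and 0.21 in the unsorted libraries, against 0.25 in the sorted one, and with the UMI total -0.14, -0.16 and -0.08, and -0.08. These are weak correlations in sparse counts, and the UMI total is also the denominator of the level.

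The other subtypes were less uniform. The top over bottom ratio of mitochondrial bins, without mitochondrial UMIs in the total, was 1.23, 1.25, 1.33 and, after sorting, 1.13 in L6-Npy. It was 1.21, 1.09, 1.12 and 1.20 in L5-S100b, and 1.24, 1.08, 0.966 and 1.08 in L2/3-Rorb, where no common direction held over libraries. From the lowest to the highest bin of UMI total, the level in L5-S100b went from 3.61 to 2.53 per 10000 in replicate 1, from 3.27 to 3.07 in replicate 2 and from 3.35 to 3.37 in replicate 3. In L2/3-Rorb it went from 3.07 to 3.14, from 4.25 to 2.89 and from 4.01 to 3.66, and in L6-Npy from 2.67 to 2.56, from 2.94 to 2.64 and from 3.48 to 3.30. A fall with depth was thus present in every library in L6-Syt6 but not in L5-S100b or L2/3-Rorb. In L6-Npy the top bin was below the bottom one in each library, but the bins between were not in order. Spearman's rho with the UMI total in L6-Npy was -0.021, -0.008 and -0.009 in the unsorted libraries, against 0.010 in the sorted one.

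**Figure D4:**
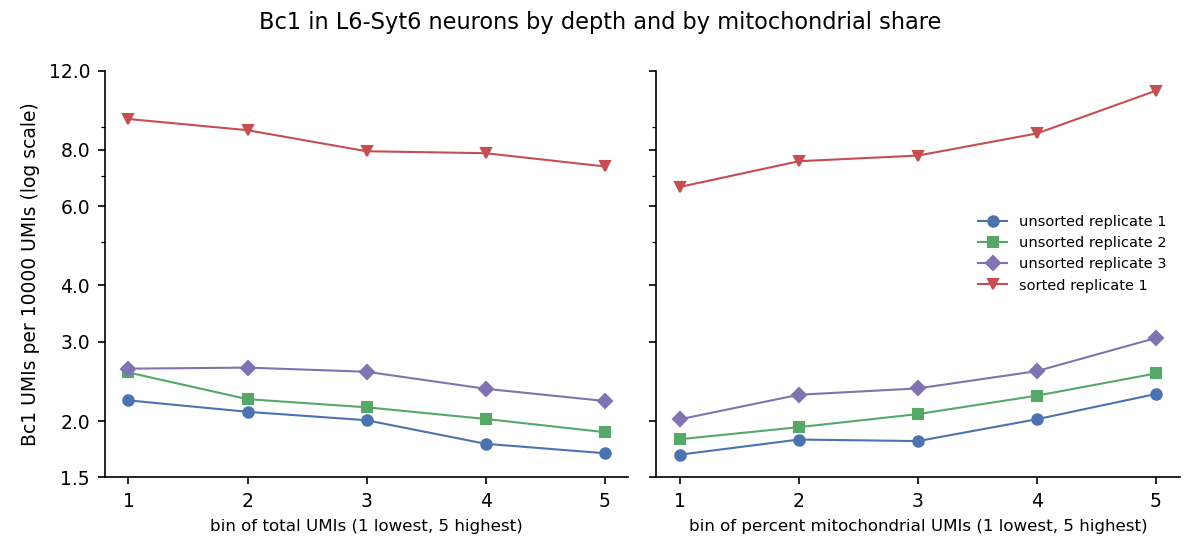
Bc1 UMIs per 10000 UMIs in L6-Syt6 neurons (vertical axis, log scale) over 5 bins of equal cell number, from lowest to highest, by UMI total (left) and by percent mitochondrial UMIs (right), 1 line per library. In all 4 libraries the top mitochondrial bin is above the bottom one, by 1.36 to 1.64 times, and the top UMI bin is below the bottom one.

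The spread of Bc1 between cells of 1 subtype was set beside that of counting alone. In L6-Syt6 neurons thinned to 10000 UMIs, the mean was 1.94, 2.14 and 2.49 Bc1 UMIs per cell in the unsorted libraries, against 8.35 in the sorted one, and the variance was 1.20, 1.23, 1.35 and 2.08 times the mean. Cells without a Bc1 UMI made up 16.9%, 14.2% and 12.2% of the unsorted cells, where a Poisson distribution of the same mean gives 14.3%, 11.8% and 8.30%. In the sorted library they were 0.271%. The ratio of variance to mean grows with the mean. The SD left after the counting variance was taken out was 32.2%, 32.6% and 37.4% of the mean in the unsorted libraries, and the sorted value, 35.9%, lay within that range.

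The viral barcode count was not used to choose Bc1, so it allowed a test. Neurons with 5 or more viral UMIs (barcode-high) were compared with neurons without any (barcode-zero) of the same library, on counts summed per library, in edgeR with library as a block. The viral feature sums all 5 viruses, so the comparison was of label against no label and not of targets. To be called, a gene needed both an adjusted p below 0.05 and a change of 0.5 or more in either direction on the log2 scale. Bc1 was called in none of the 5 comparisons, and in none of 55 fits over all alternatives. With all 4 libraries and all cells of both arms, the edgeR adjusted p was above 0.05 in all 5 comparisons, the unadjusted p was under 0.05 in L6-Syt6, and the DESeq2 adjusted p was above 0.05 in all 5.

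In L6-Syt6, barcode-high neurons had 1.76, 1.88 and 2.26 Bc1 UMIs per 10000 in the unsorted libraries, against 1.97, 2.22 and 2.53 in barcode-zero neurons, and 7.30 against 9.22 in the sorted library. The level was lower with the barcode in 4 of 4 libraries. The log2 difference was -0.18 ± 0.05 (SE, 95% interval -0.28 to -0.07), with an edgeR p of 0.0046 and an adjusted p of 0.058, so it missed the threshold over all genes. Without the sorted library, which had the largest difference, the log2 difference was -0.16 and the adjusted p 1.2e-06. With any 1 unsorted library left out, the log2 difference lay between -0.19 and -0.16 and the adjusted p between 0.17 and 0.25. Over all alternatives the log2 difference lay between -0.19 and -0.10. In this subtype 0.796% of the 13436 genes tested were called higher and 0.878% lower. Barcode-high neurons also had more UMIs, with medians of 24582 against 21684 in unsorted replicate 1 and 38604 against 30096.5 in the sorted library. Within neurons of 15000 to 30000 UMIs the difference was -0.18 with an adjusted p of 0.046, and it still fell short of the fold threshold. The median mitochondrial share was lower in barcode-high than in barcode-zero L6-Syt6 neurons of every library, at 5.72% against 5.94%, 5.65% against 5.92% and 5.81% against 5.88% in the unsorted libraries and 2.54% against 3.38% in the sorted one. Among neurons at or under the median mitochondrial share of their library the difference was -0.12 with an edgeR adjusted p of 0.023.

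In L5-S100b the log2 difference was -0.07 ± 0.05 (adjusted p 0.54 in edgeR), lower in 4 of 4 libraries, with 1.07% of genes called higher and 1.57% lower. In L2/3-Rorb it was -0.09 ± 0.05 (adjusted p 0.80), lower in 3 of 4, with 0.104% and 0.0378% called. In L6-Npy it was -0.01 ± 0.05 (adjusted p 0.98), with 0.6% and 0.175% called. The 95% intervals of these were -0.17 to 0.03, -0.20 to 0.02 and -0.10 to 0.09, so a change of 0.5 lay outside each. L2/3-Calb1, L5-Bcl6 and L5-Htr2c had fewer than 10 cells in some arm and were not tested. A test of the difference between subtypes found no pair apart: the smallest edgeR p among the 6 pairs, 0.022 for L6-Npy against L6-Syt6, had an adjusted p of 0.23.

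Over all listed neurons barcode-high cells were 0.06 ± 0.05 higher on the log2 scale (adjusted p 0.58 in edgeR), higher in the 3 unsorted libraries and lower in the sorted one. In that comparison 1.51% of 14666 genes were called higher and 0.852% lower. Without the sorted library the difference was 0.11 with an adjusted p of 1.07e-07. The subtype mix of the arms differed: L6-Syt6, the subtype with the lowest Bc1 level, made up 39.0%, 41.2% and 38.3% of barcode-high unsorted neurons and 67.7%, 71.1% and 70.9% of barcode-zero ones, against 49.1% and 47.5% after sorting. The estimate over all neurons was thus opposite in sign to that within each of the 4 tested subtypes.

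Few of the listed genes around Bc1 were called with the barcode, but calls were rare among all genes as well. No comparison had more than 1.57% of the genes tested called in one direction. Whether list members were called more or less often than other genes was not tested. Arc, an activity-induced dendritic mRNA, was higher in L5-S100b (log2 difference 0.52 ± 0.11), L6-Npy (0.86 ± 0.13) and L6-Syt6 (0.51 ± 0.12), Snap25 was higher in L5-S100b (0.52 ± 0.04), and the nuclear RNA Neat1 was higher in L6-Syt6 (0.69 ± 0.10). No other member of the lists was called in any of the 5 comparisons. Camk2a, the listed gene nearest to Bc1 in its sorted over unsorted ratio, had log2 differences from -0.04 to 0.38 and was not called.

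**Figure D5:**
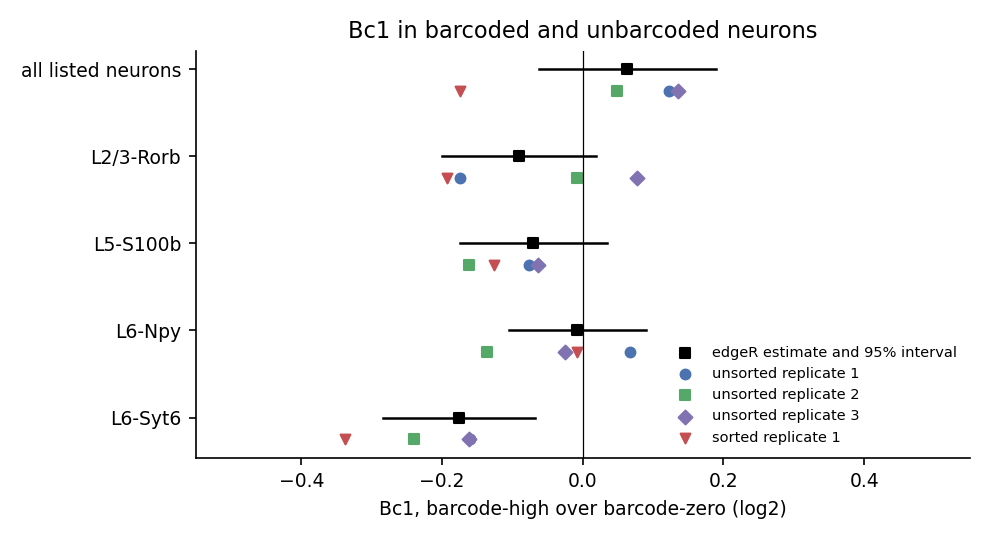
Log2 ratio of the Bc1 level in barcode-high over barcode-zero neurons (horizontal axis) for the 5 tested comparisons (vertical axis). Black squares with lines are the edgeR estimates with 95% intervals, coloured symbols are the 4 libraries, and in L6-Syt6 all of them lie below 0, with the estimate at -0.18.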

How the data were processed

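Count matrices of 3 unsorted libraries and 1 FAC-sorted library were used as the authors deposited them: whole UMI counts per gene and cell barcode from Cell Ranger (10x Chromium 3′ v3, mm10 reference with the viral barcode sequence added), unnormalized. The deposited cell table gives the authors' subtype and the percent of mitochondrial UMIs of each excitatory neuron. The submitters' processing notes name Seurat 3.1.4. Bc1 and the lists were chosen with earlier results of these data known.

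Levels are summed Bc1 counts per 10000 summed UMIs, with no filter on cells except where stated. Barcodes of 500 to 8000 genes and 1000 to 60000 UMIs, with under 20% mitochondrial UMIs, were clustered, listed neurons included. Bc1 and the viral feature were left out (Leiden, leidenalg 0.10.2), and clusters were named from marker lists. Levels of the named classes cover only unlisted barcodes that passed this filter. No doublet caller was run. Named genes were Bc1, all list members, the 5 genes of highest and 3 of lowest correlation with Bc1, and, chosen after their values were seen, the genes with the nearest ratios. The barcode comparison used counts summed per library and arm, edgeR 4.0.16 (TMM, quasi-likelihood F test, library block, Benjamini-Hochberg over all genes tested) and DESeq2 1.42.0 as an alternative, for subtypes with 10 or more cells per arm in every library. Intervals are 95%. Those of levels are exact Poisson, and those of log2 differences come from the edgeR fit. Scripts were tested on simulated data. The p-values speak only for these libraries. They rest partly on dispersions shared across genes, also in fits on 3 libraries, and not on the spread of Bc1 alone. Sequences come from GENCODE vM21 on GRCm38.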

Additional observations from a re-analysis of the deposited data

How the results depend on the processing

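Of 107 values of levels under other settings (means of per-cell values, totals without mitochondrial UMIs, a depth range, leaving out each unsorted library), 101 moved by less than the spread between libraries. Per-cell means gave 0.469 per 10000 in astrocyte-like and 0.477 in endothelial-like cells, and totals without mitochondrial UMIs gave 3.19 in L2/3-Calb1, 0.395 in endothelial-like, 0.409 in mature oligodendrocyte-like and 0.438 in microglia-like cells. Without one unsorted library, the level lay between 2.38 and 2.68 per 10000 in listed neurons, 1.15 and 1.33 outside the list and 1.82 and 2.30 under 500 genes, the L2/3-Rorb over L6-Syt6 ratio between 1.64 and 1.68, the sorted over unsorted ratio between 4.04 and 4.54 and the mitochondrial bin ratio between 1.38 and 1.46. The sorted over unsorted ratio was 4.87 within 15000 to 30000 UMIs, a setting chosen after seeing the data. Thinning to 2000 UMIs took the share of cells with a Bc1 UMI from 97.7% to 39.7% in listed neurons and from 24.7% to 13.4% outside the list, by its construction.

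The barcode difference in L6-Npy was near 0 and turned positive without the filter on low counts (0.0089), within 15000 to 30000 UMIs (0.026) and without unsorted replicate 2 (0.025, the highest value with 1 library left out, the lowest being -0.031). Bc1 was called under no setting. The fit without the library block gave L6-Syt6 a log2 difference of -0.18 with an edgeR adjusted p of 0.95. The number of genes called moved by more than 1.5 times in every comparison: 347 over all listed neurons (0 without any 1 unsorted library, 1423 without the sorted one), 15 in L2/3-Rorb (0 to 35), 318 in L5-S100b (56 to 355), 84 in L6-Npy (0 to 115) and 225 in L6-Syt6 (25 to 325). Over all listed neurons the low end came from leaving out an unsorted library. Within subtypes the low ends came from dropping the block, from DESeq2 or from calling a neuron barcode-positive at 1 UMI. In L6-Syt6, 107 genes were called higher and 118 lower with all libraries. These were 31 and 42 without unsorted replicate 1, 13 and 16 without replicate 2, and 34 and 45 without replicate 3. The cause was not tested. Depth limits the shallow barcodes, whose levels rest on 30 to 101 Bc1 UMIs per library.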
